A study of Mus musculus with 11 samples.

Results

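Pax2, Pax8, Lhx1, Pou3f3, Sox9, Irx1, Irx3, Mecom and Emx2 are transcription factor genes that act when progenitors of the mouse kidney commit to a nephron and when the young nephron is divided into segments. They were chosen by name, with earlier results of these data known, as 9 of the 24427 genes in the deposited tables. All 9 were present in both tables.

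Cells were purified from kidneys of CFW mice by sorting on a fluorescent reporter, and their messenger RNA was sequenced. On the embryonic day written E16.5, kidneys of genotype Six2TGC/+ gave 3 libraries of Six2+ cells and 3 libraries of Six2- cells, and kidneys of genotype Cited1tagRFP/+ gave 3 libraries of Cited1+ cells. At postnatal day 2 (P2), kidneys of genotype Six2TGC/+ gave 2 libraries of Six2+ cells. Six2TGC is a transgene that expresses a fusion of green fluorescent protein and Cre from Six2 regulatory sequences, and Cited1tagRFP marks Cited1 cells with a red fluorescent protein. All groups therefore carried a heterozygous reporter, and no group without one was analysed here. The Six2- sort holds every other kidney cell that passed the gate. The Cited1+ and P2 Six2+ groups differ in both stage and reporter, which cannot be told apart. The labels do not say that libraries came from separate animals, so each p-value measures the spread between libraries, which may be technical.

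Nephron progenitors surround the tips of the ureteric bud, where Six2 and Cited1 mark the self-renewing cells. Wnt signals from the bud induce some of them to express Wnt4 and to form a pretubular aggregate, then an epithelial renal vesicle, then comma-shaped and S-shaped bodies. Pax2 and Pax8 act together to establish the kidney lineage and are needed for this transition, Lhx1 is switched on in the renal vesicle and is needed to pattern it, and the Pou3f3 and Iroquois genes are used in later tubule segments.

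Values are on the RPKM scale, reads scaled to the length of the transcript and to the size of the library, so that levels can be set side by side between genes. Each ± is the SD over the libraries of a group, with n = 3 in the E16.5 groups and n = 2 at P2. The tables for the 2 comparisons may have been normalized separately, so levels from different tables are described and not tested. The depth estimated from the steps between low values was 22600000 to 44000000 reads in the E16.5 libraries, 22900000 in the first P2 library and 16500000 in the second. The sorts carried their defining transcripts. Six2 averaged 340 in E16.5 Six2+, 313 in Cited1+ and 137 in P2 Six2+ libraries, against 2.72, 2.91 and 17.0 in the Six2- libraries. Cited1 averaged 201 in Cited1+, 43.7 in E16.5 Six2+ and 3.76 in P2 Six2+ libraries. The third Six2- library held more Six2 and more Cited1 (5.01) than the other Six2- libraries, which stood at 0.516 and 0.881.

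**Figure D1:**
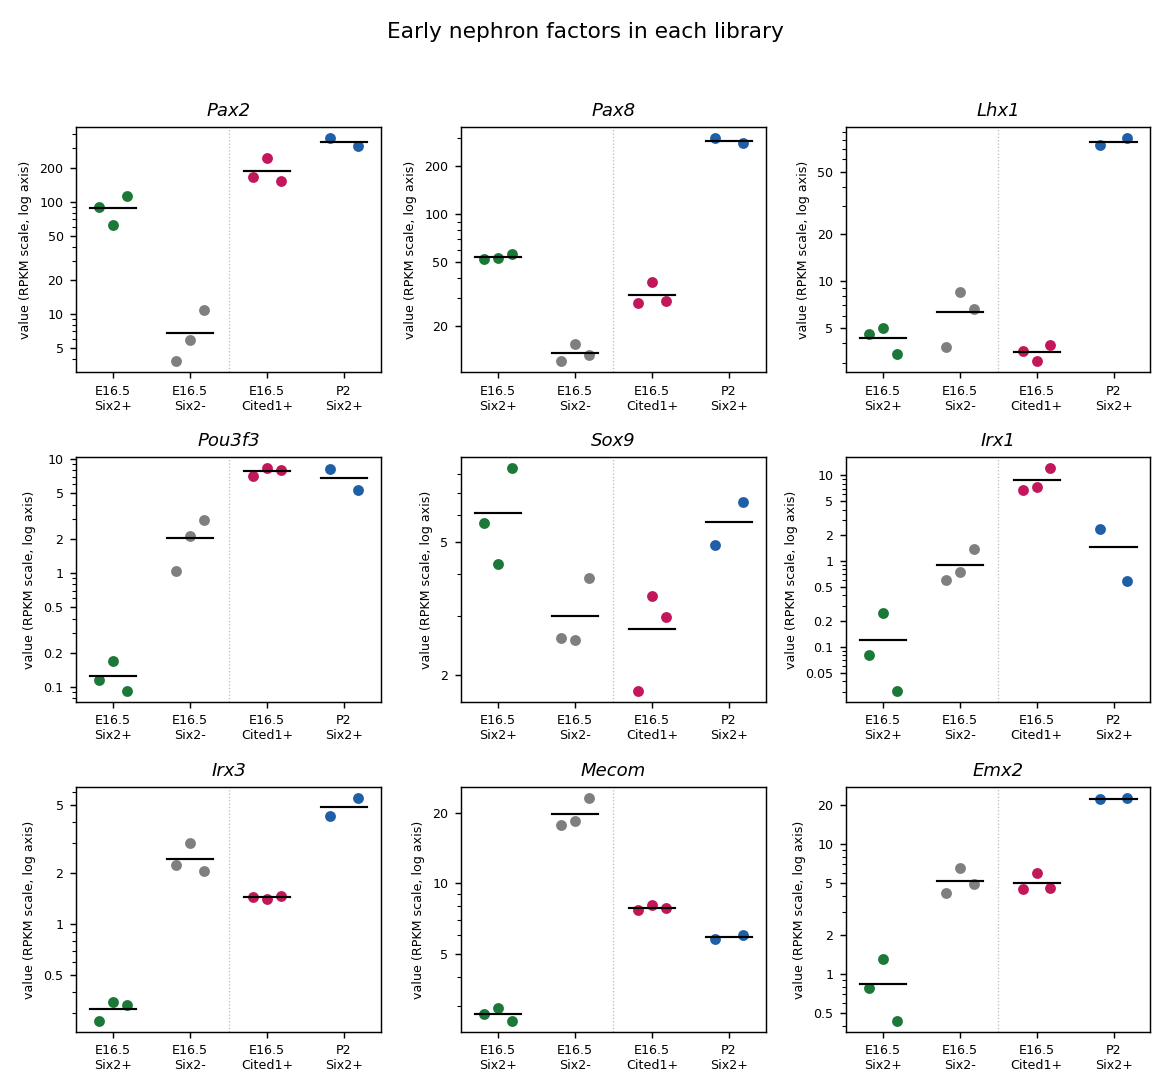
Value of each of the 9 genes in every library on the RPKM scale, with a log axis of its own in each panel. Points are libraries, horizontal lines are group means, and the dotted line separates the 2 deposited tables. Pax2, Pax8, Lhx1, Irx3 and Emx2 were highest in the 2 P2 Six2+ libraries, Irx1 in the Cited1+ libraries and Mecom in the Six2- libraries.

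The 9 genes divided the 4 populations in several ways. The libraries are bulk samples, in which fewer cells of a type and less RNA per cell cannot be told apart. Pax2, Pax8, Lhx1, Irx3 and Emx2 had their highest group mean in P2 Six2+ cells. Irx1 and Pou3f3 had theirs in Cited1+ cells, Mecom in Six2- cells, and Sox9 in E16.5 Six2+ cells. For Pou3f3 (7.84 against 6.77) and Sox9 (6.09 against 5.74) the libraries of that group overlapped those of P2 Six2+ cells. E16.5 Six2+ cells had the lowest mean for 5 of the 9, which were Pou3f3, Irx1, Irx3, Mecom and Emx2. Summed over the 9 genes, the level was 130.5 to 185.4 in E16.5 Six2+, 48.1 to 69.0 in Six2-, 223.4 to 323.6 in Cited1+ and 722.5 to 789.1 in P2 Six2+ libraries. Pax2 and Pax8 made up most of that sum in the sorted progenitors. Without them it was 14.3 to 15.2, 32.2 to 44.9, 33.0 to 41.0 and 122 to 128 in the same order, so the P2 libraries stood highest either way.

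The comparison of E16.5 Six2+ with Six2- cells asks how these factors differ between nephron progenitors and the rest of the kidney at the same stage. Pax2 and Pax8 were many times higher in Six2+ cells and Sox9 modestly so, while Mecom, Emx2, Irx3 and Pou3f3 were higher in Six2- cells. Lhx1 did not pass the test. Differences were tested with limma on log2(value + 1) over all genes with a mean of at least 1, and called at a Benjamini-Hochberg adjusted p below 0.05. Of the 8 genes tested, 3 were called higher and 4 lower in Six2+ cells, where 38.6% of all 11882 genes tested were called (20.5% higher and 18.1% lower). The libraries of the groups did not overlap for 7 of the 8, against 51.9% of all genes tested (29.9% higher and 22% lower). Among all calls 53.2% were higher in Six2+ cells, or 42.3% once all libraries were brought to a common total; the directions of the 8 genes were the same under that scaling. Pou3f3, Irx3 and Emx2 reached the minimum mean through their Six2- libraries, and Irx1 did not reach it, so these counts are a description.

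The comparison of Cited1+ cells at E16.5 with Six2+ cells at P2 asks how the factors differ between Cited1-marked progenitors before birth and Six2-marked progenitors after it. Lhx1, Pax8 and Emx2 were far higher at P2, and Irx3, Pax2 and Sox9 were higher by smaller amounts. Irx1 was higher in Cited1+ cells, Mecom slightly so, and Pou3f3 did not pass the test. Of the 9 genes tested, 2 were called higher and 6 lower in Cited1+ cells, where 29% of all 11876 genes tested were called (16.3% higher and 12.7% lower). The libraries did not overlap for 8 of the 9, against 58.5% of all genes tested (33.9% higher and 24.6% lower).

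**Figure D2:**
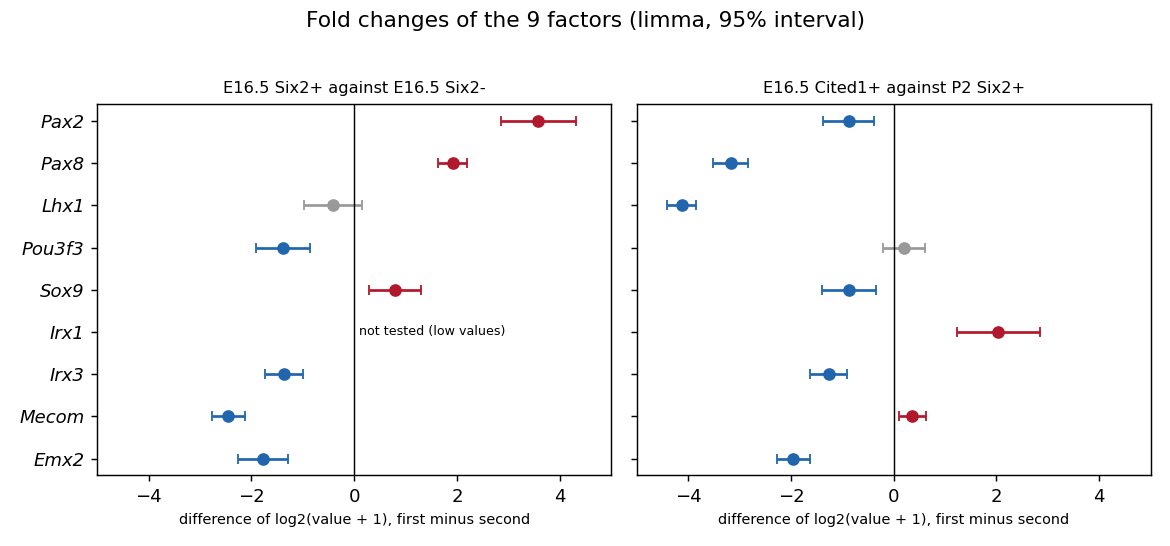
Difference of log2(value + 1) between groups for each of the 9 genes, first group minus second, with the 95% confidence interval from limma. Red marks genes called higher in the first group, blue genes called lower and grey genes not called. Pax2 (3.58) and Pax8 (1.92) were higher in E16.5 Six2+ than in Six2- cells, and Lhx1 (-4.13) and Pax8 (-3.17) were lower in Cited1+ than in P2 Six2+ cells.

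Pax2 (chr19:44746601-44838269, plus strand, GRCm38.p6) encodes a paired-box factor of the renal lineage. It read 89.9, 62.9 and 113.9 in the E16.5 Six2+ libraries and 3.83, 5.81 and 10.9 in the Six2- libraries. In the other table it read 165.4, 248.2 and 153.8 in the Cited1+ libraries and 368.2 and 314.8 at P2. The groups did not overlap in either table, and the highest Six2- value belonged to the library that also held the most Six2. Pax2 was among the most abundant genes of the postnatal progenitors, ranking 102nd and 125th of all genes in the 2 P2 libraries and 150th to 284th in the Cited1+ libraries. Six2+ cells held more Pax2 than Six2- cells (88.9 ± 25.5 against 6.83 ± 3.62; log2 difference 3.58, SE 0.32, limma adjusted p = 3.67e-05), and the log2 difference was 3.93 without the third Six2- library. Cited1+ cells held less than P2 Six2+ cells (189 ± 51.5 against 341 ± 37.8; -0.88, SE 0.21, limma adjusted p = 0.0215). That call was lost when the first or the third Cited1+ library (limma adjusted p = 0.075 and 0.0524) or either P2 library (0.14 without the first and 0.08 without the second) was left out, with no minimum mean (0.0914) and with all 11 libraries in 1 fit (0.0708).

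Pax8 (chr2:24420551-24475599, minus strand) is the close relative of Pax2 that overlaps it in function. The E16.5 Six2+ libraries held 52.2, 53.3 and 56.3, and the Six2- libraries 12.1, 15.3 and 13.2. The Cited1+ libraries held 27.9, 37.8 and 28.6, and the P2 libraries 298.9 and 279.3. None of the 4 groups overlapped another, in the order P2 Six2+, E16.5 Six2+, Cited1+, Six2-. Pax8 thus stood lower in Cited1+ than in E16.5 Six2+ libraries, whereas Pax2 stood higher, a description across tables. Within tables the differences were 1.92 (SE 0.12, limma adjusted p = 5.06e-06) for Six2+ against Six2- and -3.17 (SE 0.15, limma adjusted p = 2.09e-05) for Cited1+ against P2 Six2+. Over all alternative settings and left-out libraries they stayed between 1.84 and 2.01 and between -3.31 and -3.10.

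The ratio of Pax8 to Pax2 does not depend on how a library was scaled. It was 0.581, 0.849 and 0.494 in the E16.5 Six2+ libraries, 3.16, 2.64 and 1.22 in the Six2- libraries, 0.169, 0.152 and 0.186 in the Cited1+ libraries, and 0.812 and 0.887 at P2. Pax8 exceeded Pax2 in all 3 Six2- libraries and in no sorted progenitor library, and the Cited1+ libraries had the lowest ratios. The mean log2 ratio was lower by 2.33 in Cited1+ than in P2 Six2+ cells, with no overlap, and an exact two-sided permutation test gave p = 0.2, the smallest that 3 against 2 libraries allow. Between Six2+ and Six2- cells it differed by -1.80 (exact permutation p = 0.1, the smallest possible when libraries are taken as unpaired). That test did not use the pairing of these libraries by replicate number.

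**Figure D3:**
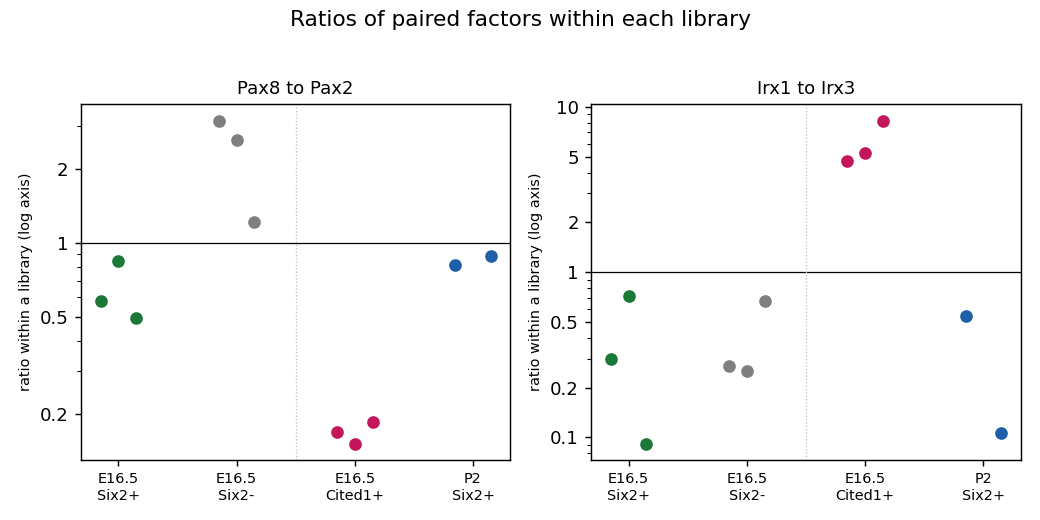
Ratio of Pax8 to Pax2 (left) and of Irx1 to Irx3 (right) within each library, on log axes, with a horizontal line at a ratio of 1. Points are libraries in the 4 groups. Pax8 stood at 0.152 to 0.186 of Pax2 in the Cited1+ libraries and near it at P2 (0.812 and 0.887), and Irx1 exceeded Irx3 only in the Cited1+ libraries (4.69 to 8.26).

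Lhx1 (chr11:84517975-84525534, minus strand) encodes a LIM homeodomain factor needed for renal vesicle patterning. It read 4.60, 4.99 and 3.41 in the E16.5 Six2+ libraries and 3.80, 8.49 and 6.65 in the Six2- libraries. It read 3.57, 3.09 and 3.89 in the Cited1+ libraries and 74.2 and 81.8 at P2. The 3 E16.5 groups overlapped one another in sequence, and both P2 libraries stood far above them all. Between Six2+ and Six2- cells Lhx1 did not pass the test (4.33 ± 0.822 against 6.31 ± 2.36; log2 difference -0.41, 95% interval -0.97 to 0.15, limma adjusted p = 0.219), and it was called lower (-0.69, limma adjusted p = 0.0302) without the first Six2- library. Between Cited1+ and P2 cells it had the greatest difference of the 9 genes (3.52 ± 0.403 against 78.0 ± 5.36; -4.13, SE 0.12, limma adjusted p = 5.14e-06), with a range of -4.44 to -4.06 over the alternatives.

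Lhx1os, a long noncoding gene on the opposite strand from Lhx1 (chr11:84525660-84535831), starts inside the 250 bases before the Lhx1 start. Its levels were 0.685, 1.33 and 1.52 in Six2+, 1.34, 2.40 and 1.67 in Six2-, 0.847, 0.648 and 0.327 in Cited1+, and 8.48 and 7.73 in P2 libraries. The P2 libraries were again apart from all others, with a log2 fold change of -2.51 for Cited1+ against P2 (SE 0.18, limma adjusted p = 0.000132) and no call between Six2+ and Six2- cells (-0.37, limma adjusted p = 0.196). Lhx1 and its noncoding neighbour were thus both called lower in Cited1+ than in P2 cells. The annotated spans of Lhx1 and Lhx1os do not overlap, and no 50-base window of the longest Lhx1 transcript occurs in a transcript of another gene.

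The 250 bases before the RefSeq starts (GRCm38.p6) of Lhx1, Pax8 and Pou3f3 are shown because the first and second were called far lower in Cited1+ than in P2 cells, and the third, described below, was not called. They run 5′ to 3′ on the strand of the gene, at chr11:84525535-84525784 for Lhx1, chr2:24475600-24475849 for Pax8 and chr1:42695518-42695767 for Pou3f3. Capitals mark matches on either strand to CCAAT or to the GC box GGGCGG.
Lhx1: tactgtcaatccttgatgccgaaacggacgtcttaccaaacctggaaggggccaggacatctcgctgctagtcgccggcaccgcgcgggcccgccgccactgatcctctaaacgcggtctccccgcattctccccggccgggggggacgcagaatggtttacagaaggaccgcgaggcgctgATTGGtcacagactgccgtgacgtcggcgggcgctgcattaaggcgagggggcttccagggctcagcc
Pax8: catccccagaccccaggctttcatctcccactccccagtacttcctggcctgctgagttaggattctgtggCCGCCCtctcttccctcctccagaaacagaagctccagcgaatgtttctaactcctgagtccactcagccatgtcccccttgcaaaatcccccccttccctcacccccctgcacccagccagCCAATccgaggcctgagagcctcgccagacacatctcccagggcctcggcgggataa
Pou3f3: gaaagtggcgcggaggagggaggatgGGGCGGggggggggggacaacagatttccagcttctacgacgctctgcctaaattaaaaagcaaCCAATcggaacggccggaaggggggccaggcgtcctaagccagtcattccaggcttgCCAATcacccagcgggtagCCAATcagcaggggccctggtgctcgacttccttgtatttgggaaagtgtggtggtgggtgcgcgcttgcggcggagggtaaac
CCAAT stood 68 bases before the Lhx1 start on the reverse strand, 57 bases before the Pax8 start, and at 160, 103 and 84 bases before the Pou3f3 start. A GC box stood 179 bases before the Pax8 start, on the reverse strand, and 224 bases before that of Pou3f3. RefSeq's table held 10 such promoters of 7 of the 9 genes, with none for Sox9 or Irx1. CCAAT occurred in 5 of these 10 and in 33.8% of all 32851 promoters of the table, and the GC box in 6 of the 10 and in 32.7%. The core of TCF and LEF sites, CTTTGA, occurred in 1 of the 10 (Mecom) against 13.8% of all, whereas TATAAA (12.4% of all) and the RBPJ site GTGGGAA (5.42%) occurred in none. GC content was 64.8% before Lhx1, 60.4% before Pax8 and 60.8% before Pou3f3, with a median of 52.4% over all promoters, and Lhx1 had 26 CpG pairs where the median promoter had 6. Such matches describe letters and not bound sites.

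Emx2 (chr19:59458690-59465357, plus strand) encodes a homeodomain factor needed in mice for urogenital development. It read 0.786, 1.32 and 0.439 in the E16.5 Six2+ libraries and 4.19, 6.56 and 4.98 in the Six2- libraries. It read 4.56, 6.02 and 4.60 in the Cited1+ libraries and 22.2 and 22.5 at P2. The Six2+ libraries at E16.5 were the lowest and the P2 libraries the highest, without overlap, while Six2- and Cited1+ libraries overlapped. The log2 difference was -1.77 (SE 0.21, limma adjusted p = 0.000234) for Six2+ against Six2- and -1.96 (SE 0.14, limma adjusted p = 0.000123) for Cited1+ against P2. The antisense gene Emx2os was at most 1.14 in any library, in the second P2 library, and it shares 7.50% of the 50-base windows of the longest Emx2 transcript, so part of the Emx2 reads may be ambiguous if strand was not used. The library kit keeps strand, but the sources used here do not say whether the counting used it.

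In the authors' deposited tables of selected genes, Pax2 (ratio 13.0) and Pax8 (3.98) stood among 246 genes higher in Six2+ than Six2- cells, and Mecom (0.141) and Emx2 (0.163) among 545 lower. Pax8 (0.105), Lhx1 (0.0475) and Emx2 (0.228) stood among 227 genes lower in Cited1+ than P2 cells in the authors' deposited table. Those ratios match the mean of the Cited1+ libraries divided by the first P2 library alone. With both P2 libraries the ratios were 0.109 for Pax8, 0.0452 for Lhx1 and 0.226 for Emx2, so the choice made little difference to these genes.

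Irx1 and Irx3 belong to the Iroquois homeobox family, whose members mark the middle of the S-shaped body and, in Xenopus, pattern the middle of the pronephric tubule. Irx1 (chr13:71958232-71963723, minus strand) read 0.0806, 0.251 and 0.0308 in the E16.5 Six2+ libraries, which corresponds to an estimated 8.02, 23.0 and 2.29 reads, and 0.597, 0.748 and 1.39 in the Six2- libraries. It read 6.81, 7.34 and 12.1 in the Cited1+ libraries and 2.36 and 0.585 at P2. Cited1+ libraries were the highest without overlap, and the 2 P2 libraries differed widely and lay on either side of the Six2- range. The log2 fold change was 2.04 for Cited1+ against P2 (8.75 ± 2.92 against 1.47 ± 1.25; SE 0.35, limma adjusted p = 0.00554), and 2.58 without the first P2 library or 1.50 without the second. Six2+ against Six2- was not tested because the mean of Irx1 was below 1; with no minimum the log2 fold change was -0.75 (limma adjusted p = 0.0171).

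Irx3 (chr8:91798511-91801654, minus strand) had a different order. It read 0.271, 0.351 and 0.335 in the E16.5 Six2+ libraries and 2.21, 2.98 and 2.06 in the Six2- libraries. It read 1.45, 1.40 and 1.47 in the Cited1+ libraries and 4.32 and 5.49 at P2. No neighbouring groups overlapped, and the P2 libraries were the highest. Irx3 was lower in Six2+ than Six2- cells (0.319 ± 0.0422 against 2.42 ± 0.496; log2 difference -1.36, SE 0.16, limma adjusted p = 0.000176, or -2.57 with a pseudocount of 0.1) and lower in Cited1+ than P2 cells (1.44 ± 0.033 against 4.90 ± 0.828; -1.27, SE 0.15, limma adjusted p = 0.00128). The antisense gene Irx3os and the relative Irx6 share most of the 4.26% of Irx3 windows that are not unique.

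Irx1 and Irx3 moved in opposite directions between Cited1+ and P2 cells. Within a library, Irx1 was 4.69, 5.23 and 8.26 times Irx3 in Cited1+ cells, and 0.546 and 0.107 times at P2. The mean log2 ratio was higher by 4.61 in Cited1+ cells, with an exact permutation p = 0.2, the smallest possible. In the Six2+ libraries (0.297, 0.716 and 0.0917) and the Six2- libraries (0.270, 0.251 and 0.673) the ratio lay below 1 and overlapped (exact permutation p = 0.9), and adding 1 to each value turned the sign of that difference from -0.41 to 0.61. Irx2, the third Iroquois gene to reach the minimum mean in that table, averaged 3.34 in Cited1+ and 0.587 in P2 cells (log2 fold change 1.44, SE 0.23, limma adjusted p = 0.00483). It reached that mean through its Cited1+ libraries, so its call is a description. Irx4, Irx5 and Irx6 did not reach the minimum mean in either table.

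Pou3f3 (chr1:42695768-42700210, plus strand; also called Brn1) encodes a POU factor required for the loop of Henle and distal tubule. It read 0.116, 0.169 and 0.0931 in the E16.5 Six2+ libraries and 1.05, 2.12 and 2.92 in the Six2- libraries. It read 7.14, 8.30 and 8.08 in the Cited1+ libraries and 8.17 and 5.37 at P2. Cited1+ and P2 libraries overlapped and stood above both groups of the other table. Pou3f3 was lower in Six2+ than in Six2- cells (0.126 ± 0.0389 against 2.03 ± 0.94; log2 difference -1.38, SE 0.23, limma adjusted p = 0.00165), and the difference was -3.14 with a pseudocount of 0.1 in place of 1. It fell under the minimum mean when the second or the third Six2- library was left out. Between Cited1+ and P2 cells it did not pass the test (7.84 ± 0.616 against 6.77 ± 1.98; 0.21, 95% interval -0.20 to 0.61, limma adjusted p = 0.388), and the difference turned to -0.06 without the second P2 library. Pantr1, a long noncoding gene that lies head to head with Pou3f3, was not called there either (1.28 against 1.36; limma adjusted p = 0.83). Pou3f1, a relative, differed from Pou3f3 in direction between Six2+ and Six2- cells, at 2.37 and 0.622 (1.05, limma adjusted p = 0.00076), and was called lower in Cited1+ than P2 cells, at 0.527 in Cited1+ and 3.01 in P2 cells (-1.41, limma adjusted p = 0.0027).

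Mecom (chr3:29951296-30509759, minus strand; also called Evi1) encodes a zinc finger factor that acts in the distal pronephros of Xenopus and is known in mice for its role in blood stem cells. It read 2.78, 2.96 and 2.60 in the E16.5 Six2+ libraries and 17.8, 18.4 and 23.0 in the Six2- libraries. It read 7.71, 8.11 and 7.85 in the Cited1+ libraries and 5.80 and 6.01 at P2. No groups overlapped, and the libraries of each group lay close together. Mecom was lower in Six2+ than Six2- cells (2.78 ± 0.178 against 19.7 ± 2.85; log2 difference -2.45, SE 0.14, limma adjusted p = 2.51e-06). It was slightly higher in Cited1+ than P2 cells (7.89 ± 0.204 against 5.91 ± 0.15; 0.36, SE 0.11, limma adjusted p = 0.0459). That call was lost with no minimum mean, after rescaling or centring, with all 11 libraries in 1 fit, and without any single library except the second Cited1+ library, with limma adjusted p of 0.0603 to 0.153 among these.

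Sox9 (chr11:112782210-112787757, plus strand) encodes an HMG-box factor needed for branching of the ureteric bud and expressed in young nephrons. It read 5.68, 4.29 and 8.30 in the E16.5 Six2+ libraries and 2.58, 2.54 and 3.91 in the Six2- libraries. It read 1.80, 3.43 and 2.99 in the Cited1+ libraries and 4.90 and 6.57 at P2. Groups did not overlap within a table, but the gaps between them were narrow. Sox9 was higher in Six2+ than Six2- cells (6.09 ± 2.03 against 3.01 ± 0.778; log2 difference 0.80, SE 0.23, limma adjusted p = 0.0222) and lower in Cited1+ than P2 cells (2.74 ± 0.848 against 5.74 ± 1.19; -0.86, SE 0.23, limma adjusted p = 0.0283). The first call was lost without the first or the third Six2+ library or the first or second Six2- library (limma adjusted p of 0.0542, 0.0613, 0.0647 and 0.0755), after rescaling (0.0729) and with no minimum mean (0.0605). The second was lost without the first Cited1+ library (limma adjusted p = 0.0663) or either P2 library (0.0629 and 0.155), and with no minimum mean (0.106). Among relatives, Sox8 was higher in Six2+ than Six2- cells (1.55 against 0.480; 0.79, limma adjusted p = 0.0025) and was not called between Cited1+ and P2 cells (-0.04, limma adjusted p = 0.882). Sox13 was higher than Sox9 in every group, with group means from 13.3 to 18.9, and was called lower in Cited1+ than P2 cells (13.3 against 17.9; -0.40, limma adjusted p = 0.0211) but not between Six2+ and Six2- cells (0.31, limma adjusted p = 0.191). Sox6 was tested between Cited1+ and P2 cells only and was not called (0.874 against 1.25; limma adjusted p = 0.282).

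Markers of other kidney cells differed between the groups beside these factors. The summed level of 9 interstitial stroma markers was between 59.6 and 80.5 in E16.5 Six2+ libraries and between 2090 and 3060 in Six2- libraries. That of 7 endothelial markers was between 0.433 and 2.69 and between 38.2 and 70.0 in the same order, and that of 7 proximal tubule markers between 1.89 and 2.62 and between 14.4 and 19.0. The 12 ureteric bud and collecting duct markers summed to 26.4 to 29.7 in Six2+ and 37.1 to 61.1 in Six2- libraries. Of the 7 tested, 5 were called lower in Six2+ cells (18.1% of all genes were), as were Mecom, Emx2, Irx3 and Pou3f3. Of the others, 1 was not called and 1, Hoxb7, was called higher (18.3 against 8.72, log2 difference 1.01, limma adjusted p = 0.00188). Hoxb7 made up most of the duct sum in each Six2+ library. Over the remaining lists, the sums in Six2+ and Six2- libraries were 5.68 to 7.86 and 22.9 to 100 for 6 podocyte markers, 1.90 to 11.3 and 56.3 to 80.7 for 6 leukocyte markers, 11.6 to 51.4 and 824 to 8530 for 6 erythroid markers, and 22.6 to 34.0 and 5.45 to 7.87 for 7 loop and distal tubule markers. Ppp1r1a made up most of that last sum in Six2+ libraries (27.4, 31.9 and 22.4), whereas Sostdc1, the other loop and distal tubule marker tested, was called lower in Six2+ cells (0.204 against 2.98; -1.65, limma adjusted p = 0.00385). The 11 progenitor markers, with Six2 and Cited1 among them, summed to 831 to 902 and 156 to 204. The part of these cell types in the values of the 4 factors was not tested.

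Cited1+ libraries, where Irx1 was highest, also held more tubule and duct markers than P2 libraries. The 12 ureteric bud and collecting duct markers summed to 91.6 to 124 in Cited1+ and 42.3 to 43.1 in P2 libraries. Of the 10 tested, 7 were called higher in Cited1+ cells and none lower, against 16.3% and 12.7% of all genes. The 7 loop and distal tubule markers summed to 74.0 to 100 and 19.3 to 38.9, with 5 of 7 called higher. Aqp2 and Elf5 among the duct markers, and Cldn19 among the loop markers, reached the minimum mean through their Cited1+ libraries. Their P2 means were 0.793, 0.604 and 0.508, so the counts for both lists are a description. Tfcp2l1, a collecting duct and distal tubule factor, averaged 12.4 in Cited1+ and 1.45 in P2 libraries, Slc12a1, the sodium transporter of the thick ascending limb, 34.9 and 3.44, and Cdh1, the epithelial cadherin, 13.4 and 2.74. These markers were chosen after their values were seen. Means of other markers differed less, as for Umod (3.81 and 3.32) and Hoxb7 (19.5 and 17.2), and Slc12a3 was lower in Cited1+ libraries (2.68 and 3.13). In the 2 P2 libraries Slc12a1 was 6.40 and 0.483, and Irx1 2.36 and 0.585. The sum of the duct markers was 43.1 and 42.3 there. Single duct markers went both ways, with Hoxb7 at 13.85 and 20.58 and Krt8 at 4.71 and 3.44. In Cited1+ and P2 libraries the sums were 21.8 to 26.8 and 10.6 to 17.5 for proximal tubule, 8.07 to 15.8 and 39.6 to 49.2 for podocyte, 129 to 136 and 44.7 to 52.4 for stroma, 4.94 to 15.2 and 3.43 to 5.96 for endothelial, 5.27 to 13.8 and 13.3 to 14.4 for leukocyte, and 93.9 to 138 and 24.0 to 46.0 for erythroid markers. None of the duct, loop or distal tubule markers was at 0 in all libraries of a group, and their part in the Irx1, Pou3f3 and Mecom values was not tested.

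**Figure D4:**
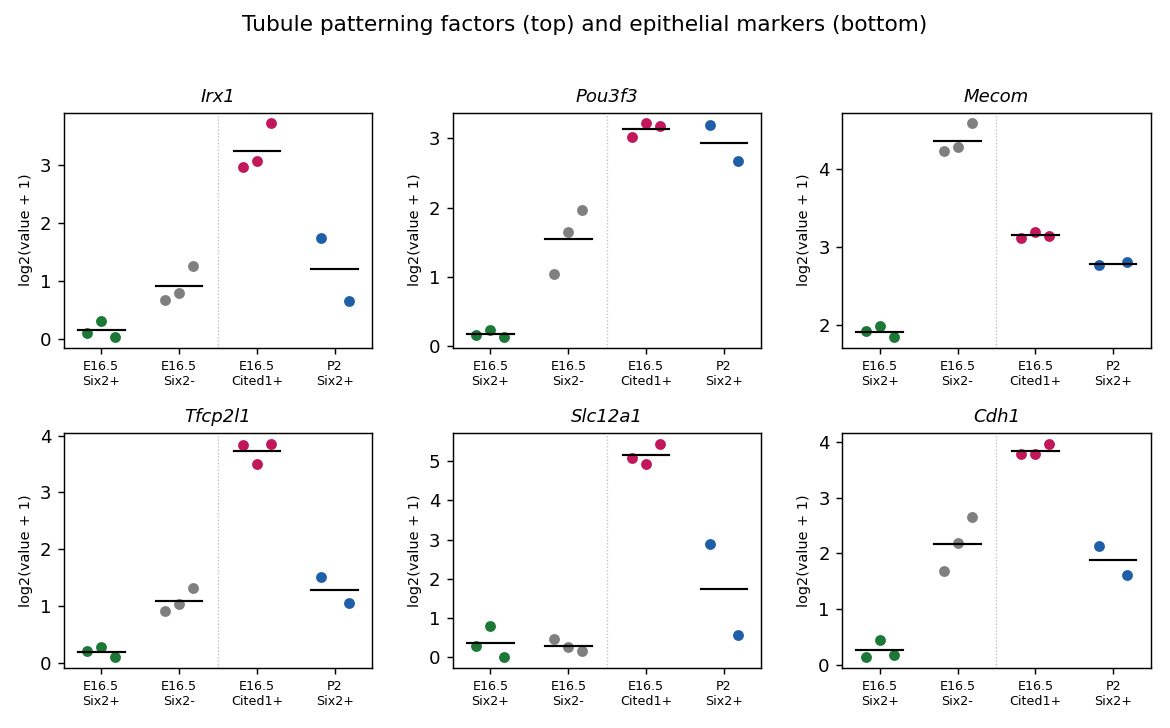
Level, as log2(value + 1), of Irx1, Pou3f3 and Mecom (top) and of the epithelial markers Tfcp2l1, Slc12a1 and Cdh1 (bottom) in every library. Points are libraries and lines are group means of log2(value + 1). Irx1 and the 3 markers, which were chosen after their values were seen, were highest in the Cited1+ libraries. The first P2 library lay above the second for Irx1 and these 3 markers, but not for every duct marker.

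Other genes of the renal vesicle and S-shaped body, listed with earlier results of these data known, were set beside the 9 factors as a description. Of 27 such genes, 24 were tested between Cited1+ and P2 cells. Of these, 20 were called lower in Cited1+ cells, 1 higher and 3 not called, against 12.7% lower and 16.3% higher of all genes. Their median log2 fold change was -1.96, where the median over all genes was 0.07. Npy, a neuropeptide gene, averaged 1.01 in Cited1+ and 106 in P2 cells (-5.75, limma adjusted p = 6.77e-06). Wnt4, the ligand that drives the transition to epithelium, averaged 9.01 and 219 (-4.47, limma adjusted p = 5.14e-06). Bmp2, a renal vesicle ligand, averaged 0.945 and 27.1 (-3.85, limma adjusted p = 1.5e-05), and Lef1, a nuclear effector of Wnt signalling, 0.919 and 19.0 (-3.39, limma adjusted p = 2.53e-05). Hnf4a, a proximal tubule factor, was the 1 gene called higher in Cited1+ cells (2.67 against 0.826; 1.005, limma adjusted p = 0.00301). Fgf8, Dkk1 and Lfng were not called. Among the 9 factors, Pax8, Lhx1, Emx2, Irx3, Pax2 and Sox9 were also called lower in Cited1+ cells, and Irx1 and Mecom higher. The calls of Pax2, Sox9 and Mecom were lost under several alternatives.

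Between E16.5 Six2+ and Six2- cells the same list went both ways. Of 25 genes tested, 6 were called higher and 11 lower in Six2+ cells, against 20.5% higher and 18.1% lower of all genes. Their median was -0.35, against 0.12 over all genes. Cdh4, a cadherin, averaged 32.6 in Six2+ and 3.97 in Six2- cells (2.74, limma adjusted p = 5.06e-06) and Wnt4 63.0 and 11.7 (2.36, limma adjusted p = 9.79e-06), on the side of Pax2 and Pax8. Dkk1, a secreted Wnt antagonist, averaged 0.310 and 19.0 (-3.93, limma adjusted p = 2.13e-07), on the side of Mecom, Emx2, Irx3 and Pou3f3.

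**Figure D5:**
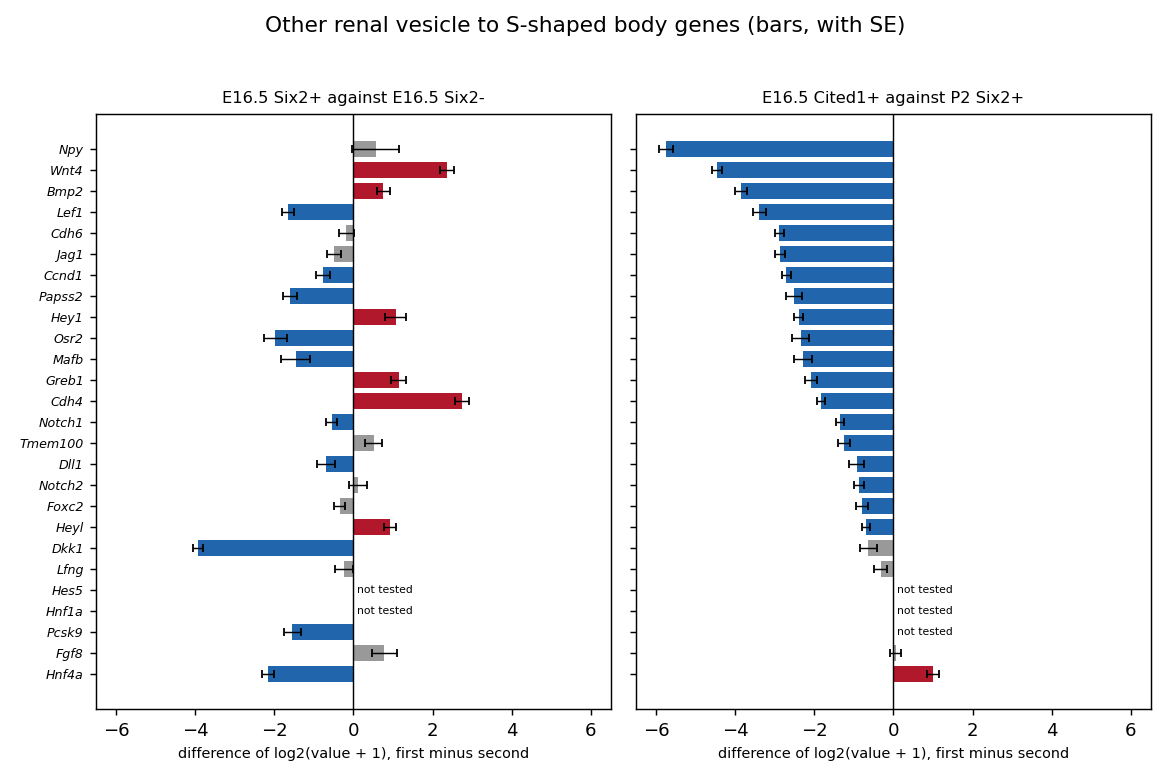
Log2 fold change of other renal vesicle to S-shaped body genes in the 2 comparisons, first group minus second on log2(value + 1), with the SE from limma. Red bars were called higher in the first group, blue bars lower and grey bars not called. In the right panel most genes were lower in Cited1+ than P2 cells, from Npy (-5.75) up, and Hnf4a was higher (1.005), whereas in the left panel calls ran from Dkk1 (-3.93) to Cdh4 (2.74).

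Cofactors of these proteins were compared in the same way. Of 13 partners of LIM homeodomain and Pax proteins, 2 were called higher and 4 lower in Six2+ than Six2- cells, and of 12 tested between Cited1+ and P2 cells 1 was called higher and 2 lower, shares near the 38.6% and 29% of all genes called in these comparisons. Eya1, a coactivator that is itself a progenitor gene, averaged 81.7 in Six2+ and 2.62 in Six2- cells (4.58, limma adjusted p = 1.95e-06). Ldb2, a cofactor of LIM domain proteins, averaged 0.777 and 75.0 (-5.44, limma adjusted p = 2.11e-07), while its relative Ldb1 averaged 93.8 and 58.3 (0.66, limma adjusted p = 0.0315). Lmo2, a LIM-only protein of blood and endothelium, averaged 0.539 and 4.09 (-1.72, limma adjusted p = 0.000189), and the log2 fold changes of Ssbp2 (-0.505) and Tle1 (-0.487) were smaller. Between Cited1+ and P2 cells, where Lhx1 itself differed by -4.13, Ssbp4 stood at 90.4 and 45.8 (0.96, limma adjusted p = 0.000485), Lmo4 at 19.6 and 33.5 (-0.74, limma adjusted p = 0.00196) and Ssbp3 at 63.7 and 88.1 (-0.47, limma adjusted p = 0.0377). Ldb1 was not called there (76.5 against 67.8; limma adjusted p = 0.336).

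Gdnf, Ret, Gata3, Wnt4, Sfrp2 and Lhx1 are reported targets of Pax2 or Pax8, and their calls went in both directions. Between Cited1+ and P2 cells Wnt4, Sfrp2 (30.8 against 190; -2.60, limma adjusted p = 3.75e-05) and Lhx1 were called lower. Gdnf, the ligand that draws out the ureteric bud (32.6 against 16.9; 0.91, limma adjusted p = 0.013), and Gata3, a collecting duct factor (6.02 against 1.18; 1.66, limma adjusted p = 0.00165), were called higher. In Six2+ against Six2- cells Wnt4 was called higher, Gdnf (19.8 against 32.2; -0.66, limma adjusted p = 0.041) and Gata3 (0.068 against 3.56; -2.08, limma adjusted p = 2.69e-05) lower, and Sfrp2 was not called (40.4 against 40.3). Ret did not reach the minimum mean in either table.

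The lists of relatives differed in how many genes were expressed. Of the 9 Pax genes only Pax2 and Pax8 reached a mean of 1 in either table. Of 12 LIM homeobox genes only Lhx1 and Lmx1b did so. Lmx1b, a podocyte factor, averaged 11.5 in Six2+ and 0.645 in Six2- cells (2.96, limma adjusted p = 3.15e-05), while in Cited1+ and P2 cells it averaged 12.3 and 16.3 and was not called (-0.34, limma adjusted p = 0.331). Emx1 (1.99 against 0.781, limma adjusted p = 0.124) and Prdm16, a relative of Mecom (0.39, limma adjusted p = 0.114), were tested between Cited1+ and P2 cells and were not called.

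The patterns of the 9 genes were compared with those of 11484 genes with a mean of at least 1 by the mean absolute difference of log2(value + 1) over the 11 libraries, after each gene was centred on its own mean. The libraries differ in depth and sort and come from 2 tables that may have been normalized separately, and the measure is a description with no test. Pax2 lay nearest to Eya1 (0.565), Padi2 and Ism1, and Pax8 nearest to Gldn (0.217), Nos1 and Sorbs2. Lhx1 lay nearest to Oxtr (0.375), Sdk2 and Tmem132c, and Emx2 to Hs3st3b1 (0.280) and Glis3. Irx1 lay nearest to the tight junction genes Cldn8 (0.207) and Cldn4 (0.218) and to Tfcp2l1 (0.209), which had means of 6.61, 15.1 and 12.4 in Cited1+ libraries and 1.02, 1.60 and 1.45 at P2. Pou3f3 lay nearest to Tmem52b (0.323), Epb41l4a and Adgrg1. Irx3 lay nearest to Rbms3 and Gab2 (0.179 each) and Gng12, Mecom to Arhgap24 (0.134), Fmo1 and Anxa11, and Sox9 to Hoxa5 (0.187), Col4a6 and Foxp4. Genes that vary little, such as Sox9 with a span of 1.73, find close neighbours more easily than Pax2 with a span of 6.26. Among the 9 genes the closest pair was Irx3 and Emx2 (0.456), followed by Pou3f3 and Irx1 (0.574), and the farthest was Pax2 and Mecom (2.479).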

How the data were processed

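The members and gene lists were chosen with earlier results of these data known. Per the labels' protocols, a Qiagen RNeasy micro kit and a Kapa stranded kit for messenger RNA were used. Base calling used bcl2fastq 2.17, and TopHat2, Partek and build mm10 are also listed, per the submitters' processing notes; the counting method and its use of strand were not given in the sources used here. The authors deposited 2 tables of 24454 rows with normalized values per library, called TPM in their file names. They scale as RPKM: the sums per library ran from 321882.9 to 433447.3, not 1000000, and varied by 9.0% (CV), while the sums weighted by transcript length varied by 2.5%. They were therefore used as RPKM deposited by the authors, with no count model. The authors also deposited lists of selected genes with a ratio of group means, used only where named, and their p-values were not used. Rows with a date in place of a symbol, 27 per table, were left out (0.125 to 0.215% of the values), which left 24427 genes.

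The group of each library came from its labels. Within a table, log2(value + 1) was fitted with limma 3.58.1 (R 4.3.3) and its trend option, keeping genes whose mean reached 1, and p-values were adjusted by Benjamini-Hochberg over every gene kept and called below 0.05. Fold changes on this scale understate those of low genes. A gene that was low in 1 group could reach the minimum mean through the other, and the call of such a gene is a description. The fit was tested on simulated data. Ratios were tested with exact permutations. Replicate numbers paired the Six2+ and Six2- libraries, since the deviations of same-numbered libraries correlated at 0.47, 0.45 and 0.40, each highest with its own number. The main fit and the ratio tests did not use this pairing, whereas the replicate block among the alternatives did. Depth was estimated from low values, of which 63.5 to 69.9% lay within 0.05 of a whole read step (10% by chance). The recovered reads were therefore used only to describe depth and, with the length of the longest transcript, to estimate the reads of Irx1. Promoters, motifs, loci (RefSeq, GRCm38.p6) and neighbouring genes (GENCODE M21, within 10 kb of a start) were read from reference tables, matching members by symbol. Besides the members, Wnt4, Six2 and Cited1, the text names relatives above the minimum mean, up to 4 genes of each other list with the greatest change (further ones where a count is spelled out), leading markers, and up to 3 nearest patterns per member (1 gene under these rules, counted in its list, is not reported here); Tfcp2l1, Slc12a1 and Cdh1 were chosen after their values were seen. The alternatives were another pseudocount (0.1), no minimum mean, rescaling, median-centring, all libraries in 1 fit, no trend, a replicate block, and leaving out each library.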

Additional observations from a re-analysis of the deposited data

How the results depend on the processing

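Under the alternatives, 95 refitted fold changes of the members between Six2+ and Six2- cells kept their direction and call, 6 lost the call and 1 gained it, and between Cited1+ and P2 cells 87 kept both, 20 lost the call and 1 reversed. The losses concerned Sox9 in the first comparison and Pax2, Sox9 and Mecom in the second, and the gain was that of Lhx1. Pou3f3 in Cited1+ against P2 cells ran from 0.47 without the first P2 library to -0.06 without the second, and the Six2+ against Six2- difference of the Irx1 to Irx3 ratio turned to 0.613 with a pseudocount of 1; the cause was not tested. Genes called higher in Six2+ cells numbered 2440, against 1546 after rescaling and 1618 to 2382 with 1 library left out. Genes called in Cited1+ against P2 cells numbered 1930 higher and 1512 lower (56.1% of the calls higher), with the balance turned after rescaling (1546 and 1782, 46.5%) and median-centring (1602 and 1740, 47.9%). The higher count was 1139 with no minimum mean, and with 1 library left out the counts ran from 791 to 3012 higher and from 788 to 2145 lower. Members called higher there numbered 2, but 1 with no minimum mean, after rescaling, after median-centring and with all libraries in 1 fit, and 1 to 2 with 1 library left out. With 1 P2 library left, that library is assumed to vary like the other group.

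With the replicate block, 3603 genes were called higher and 2632 lower in Six2+ than Six2- cells, and no call of a member changed in that paired comparison. Cited1+ and P2 libraries share only a number (correlations of 0.04 and -0.03), and with the block 895 genes were called higher and 868 lower there, with 1 member higher and 5 lower; Pax2 (limma adjusted p = 0.0888) and Mecom (0.191) were not called. Precision is limited by 2 P2 libraries and by low values such as Irx1 and Pou3f3 in Six2+ cells. Emx2 and Irx3 share sequence with antisense genes.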
